A study of Mus musculus with 20 samples.

Results

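The 45 genes described here encode the autophagy machinery and the regulators of the kinase mTOR. The set is defined by known function, and all 45 were found among the 55487 gene identifiers of the count table. RNA was sequenced from 20 cultures of BV-2, an immortalized mouse microglial cell line derived from brain cultures of C57BL/6 mice. Young (low-passage) and aged (long-term cultivated) wild-type cells were either left untreated or exposed to 100 ng/ml LPS, a bacterial cell wall component that activates microglia, for 6 hours, with 5 cultures in each of the 4 groups. All cultures come from this single cell line, and frozen aliquots of aged and young cells were thawed together for the experiments, so the groups model ageing in culture, not in the brain. How many separate long-term cultivations the 5 aged cultures stand for is not given in the sources used here, and p-values then measure only the spread between these cultures. RNA from whole cultures cannot tell fewer cells of a type from less RNA per cell.

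Autophagy delivers cytoplasm to the lysosome. The ULK kinase complex starts it, the class III PI3-kinase complex marks the forming membrane with a phosphorylated lipid, and WIPI proteins, ATG2 lipid transfer proteins and the scramblase ATG9A help that membrane to expand. A ubiquitin-like conjugation machinery then attaches the small ATG8 proteins (the LC3 and GABARAP families), to which cargo receptors such as p62 (*Sqstm1*) bind. The kinase complex mTORC1 holds ULK1 and the transcription factors TFEB and TFE3 in check when amino acids and growth factors are available. Rag GTPases bring it to the lysosome, and the TSC complex and GATOR1, of which DEPDC5 is a subunit, restrain it. In microglia the pathway is known for handling engulfed material and damaged organelles and for restraining inflammatory signalling.

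Promoters of the genes on which the results turn are shown because *Sqstm1* and *Ulk1* had the largest LPS responses of the set in young cultures, upward and downward, because *Atg13* rose while the rest of its complex fell, and because *Ulk1*, *Ulk2* and *Depdc5* responded differently in young and aged cultures. *Rragc* is added as a gene with a letter match to the E-box. Each run is the 250 bases before a RefSeq transcription start on GRCm38.p6, written 5′ to 3′ on the strand of the gene, and capitals mark a motif match.
*Sqstm1*, chr11:50210821-50211070 (minus strand): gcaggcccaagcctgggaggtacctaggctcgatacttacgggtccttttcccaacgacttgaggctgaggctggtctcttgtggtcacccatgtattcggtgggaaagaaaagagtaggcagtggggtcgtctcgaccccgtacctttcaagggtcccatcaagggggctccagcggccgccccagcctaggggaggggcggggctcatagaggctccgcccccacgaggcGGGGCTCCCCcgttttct
*Atg13*, chr2:91710593-91710842 (minus strand): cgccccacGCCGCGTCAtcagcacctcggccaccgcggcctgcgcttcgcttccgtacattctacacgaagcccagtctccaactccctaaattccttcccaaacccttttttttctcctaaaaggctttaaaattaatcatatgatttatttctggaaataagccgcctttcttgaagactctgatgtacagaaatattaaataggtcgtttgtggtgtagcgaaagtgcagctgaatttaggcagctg
*Rragc*, chr4:123917183-123917432 (plus strand): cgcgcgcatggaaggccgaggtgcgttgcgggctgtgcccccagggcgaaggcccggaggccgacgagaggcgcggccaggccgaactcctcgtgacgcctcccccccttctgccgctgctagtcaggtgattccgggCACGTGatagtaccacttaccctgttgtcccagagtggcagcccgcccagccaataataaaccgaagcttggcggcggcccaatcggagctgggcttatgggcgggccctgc
*Ulk1*, chr5:110810082-110810331 (minus strand): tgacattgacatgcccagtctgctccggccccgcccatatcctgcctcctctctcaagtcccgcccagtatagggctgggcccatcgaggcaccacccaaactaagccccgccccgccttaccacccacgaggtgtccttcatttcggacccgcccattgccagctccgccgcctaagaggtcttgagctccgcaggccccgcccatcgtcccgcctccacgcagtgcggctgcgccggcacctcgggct
*Ulk2*, chr11:61855093-61855342 (minus strand): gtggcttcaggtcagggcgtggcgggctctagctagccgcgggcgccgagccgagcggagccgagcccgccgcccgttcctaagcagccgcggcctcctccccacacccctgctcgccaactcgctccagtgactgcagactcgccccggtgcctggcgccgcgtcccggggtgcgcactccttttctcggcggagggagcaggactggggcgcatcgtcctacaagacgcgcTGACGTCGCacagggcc
*Depdc5*, chr5:32863471-32863720 (plus strand): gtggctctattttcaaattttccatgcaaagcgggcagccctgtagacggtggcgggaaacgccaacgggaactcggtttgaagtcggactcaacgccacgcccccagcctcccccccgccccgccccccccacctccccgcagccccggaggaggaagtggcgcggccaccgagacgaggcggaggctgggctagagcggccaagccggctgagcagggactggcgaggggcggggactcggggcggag

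The capitals in *Sqstm1* are the NF-kappaB motif, those in *Atg13* and *Ulk2* the core of the antioxidant response element (TGACNNNGC), and those in *Rragc* the E-box CACGTG. The windows of *Ulk1* and *Depdc5* hold none of the 5 motifs searched on both strands. Over the 39 genes with a window in the RefSeq table (44 windows), the E-box stood before *Atg3*, *Atg5*, *Atg7* and *Rragc*, in 9.09% of the windows as compared to 6.02% of all 32851 windows. The longer CLEAR element of TFEB and TFE3 (GTCACGTGAC, which contains the E-box) was found before none of the 39 genes and in 0.24% of all windows. The NF-kappaB motif stood before *Atg101*, *Atg16l2*, *Sqstm1* and *Tsc1* (9.09% of the windows, 7.25% of all), the antioxidant response element core before *Atg13*, *Tax1bp1* and *Ulk2* (6.82%, as compared to 10.2% of all), and the AP-1 element TGANTCA before none (6.75% of all). A match describes letters and is not a binding site. *Atg12*, *Atg16l1*, *Becn1*, *Map1lc3a*, *Pik3c3* and *Rb1cc1* had no window.

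The libraries held 11371508 to 16829292 counts, and a count of 3, taken as the floor, corresponds to 0.165 to 0.296 CPM (counts scaled by library size after TMM normalization, the unit of the levels below) and covers counting error only. The TMM factors were 0.891 to 0.931 in young LPS-treated, 0.952 to 0.973 in aged LPS-treated and 1.04 to 1.08 in untreated cultures. Each of the 12 microglial markers was above the floor in some or all libraries. Their summed level was 2543 to 4653 CPM (median 3536 CPM in young, 2764 CPM in aged, 3948 CPM in young LPS-treated and 3109 CPM in the aged LPS-treated cultures). Every neuronal and fibroblast marker, 3 of 4 astrocyte markers and the oligodendrocyte markers *Mag* and *Mog* stayed at the floor. The 6 LPS-inducible genes used to check the labels summed to 20.2 to 54.4 CPM in untreated, 1623 to 4320 CPM in young LPS-treated and 849 to 1912 CPM in the aged LPS-treated cultures. Of the 45 genes, 44 passed the filter on low counts and were tested together with all 12799 genes by edgeR's quasi-likelihood F-test, and a gene is called when its Benjamini-Hochberg adjusted p over all of these genes is below 0.05. The gene left out was *Wipi1*, which encodes a lipid-binding WIPI protein and had 0.0672 to 0.758 CPM across the 20 libraries.

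**Figure D1:**
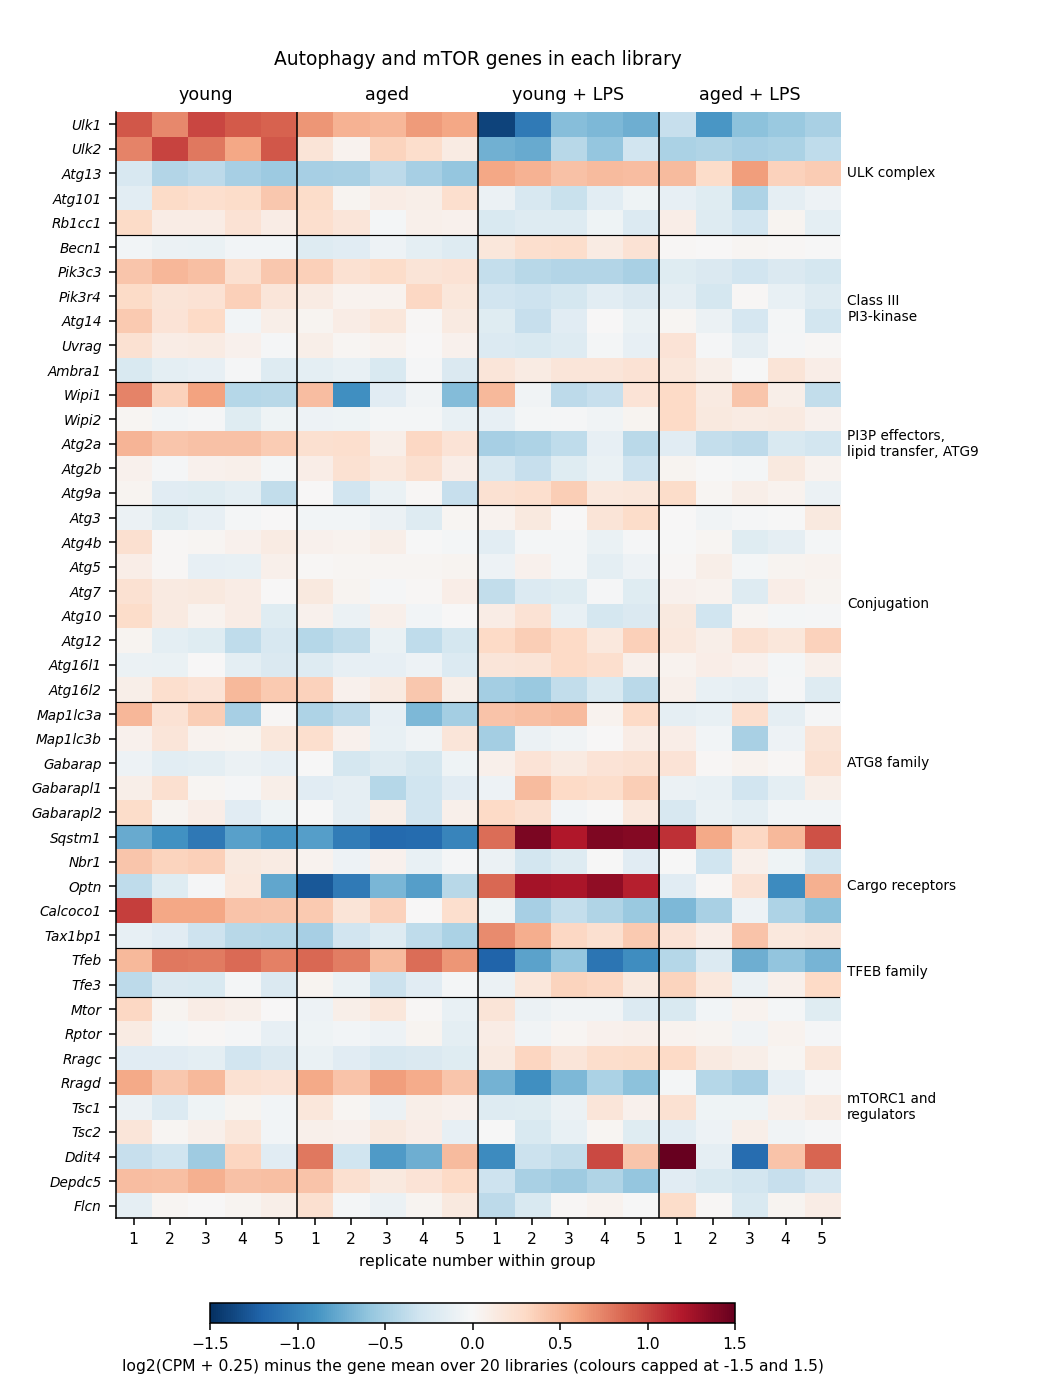
Levels of the 45 genes (rows, grouped by role) in the 20 libraries (columns, by group and replicate number), as log2(CPM + 0.25) minus the gene's mean over all libraries, with colours ending at -1.5 and 1.5. *Sqstm1* and *Atg13* are red in the LPS-treated and blue in most untreated libraries, *Ulk1*, *Ulk2*, *Tfeb* and *Rragd* show the opposite, and most other rows are pale. *Optn* is red in the young LPS-treated libraries and mixed in the aged LPS-treated ones.

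Levels of different genes are compared as CPM per kb of merged exons. In young untreated cultures *Gabarap*, which encodes an ATG8 protein, had the highest level (126 ± 3.32 CPM per kb, SD, n = 5), followed by *Sqstm1* (87.8 ± 7.31 CPM per kb), the Rag GTPase gene *Rragc* (44 ± 1.68 CPM per kb) and the ATG8 gene *Gabarapl1* (41.1 ± 2.82 CPM per kb). The levels of *Rragc* and *Gabarapl1* did not differ beyond their SDs, which overlapped. *Atg13*, which encodes a ULK complex subunit, came next (33.6 ± 2.81 CPM per kb). The low end of the order was formed by *Atg16l2* (2.14 ± 0.235 CPM per kb), *Optn* (0.217 ± 0.0671 CPM per kb) and *Wipi1* (0.106 ± 0.0588 CPM per kb). Under LPS *Sqstm1* passed *Gabarap* at both ages, with 388 ± 60.5 CPM per kb in young and 265 ± 61.3 CPM per kb in aged cultures, as compared to 153 ± 6.51 and 147 ± 10.5 CPM per kb of *Gabarap*.

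The comparison of aged with young untreated cultures asks which of these genes differ with long-term cultivation alone. No gene of the set was higher and 8 of 44 (18.2%) were lower in aged cultures. They were both ULK kinase genes (*Ulk2*, log2 fold change -0.63 ± 0.092 (SE), and *Ulk1*, -0.32 ± 0.10), the ATG8 genes *Map1lc3a* (-0.59 ± 0.14) and *Gabarapl1* (-0.32 ± 0.085), the cargo receptor genes *Calcoco1* (-0.38 ± 0.12) and *Nbr1* (-0.30 ± 0.074), the lipid transfer gene *Atg2a* (-0.22 ± 0.062) and the GATOR1 gene *Depdc5* (-0.20 ± 0.055). Over all 12799 tested genes 11.5% were called, 3.71% as higher and 7.81% as lower. None of the PI3-kinase complex (0 of 6), the conjugation machinery (0 of 8) and the TFEB family (0 of 2) was called. With 11.5% of all tested genes called, groups this small can hold no call without differing from the rest. At an unadjusted p below 0.05, 3301 of all tested genes passed. The ranges of the groups did not overlap in 7 of these genes (all but *Map1lc3a*) and in *Atg2b*, which was the higher in aged cultures, while 10.4% of all tested genes had ranges that did not overlap. Log2 fold changes had a median of -0.067 in the set and -0.014 in all tested genes. All 8 called genes were lower in aged cultures in 5 of 5 batches (same-numbered cultures). Where ranges do not overlap, as in 7 of these genes, every batch must show the same direction, so this adds nothing there. The count depended on single replicates, as it was 5, 1, 5, 4 and 5 without replicates 1 to 5 in turn, and *Ulk2* alone was called in each of these fits. *Pik3c3* (-0.15, adjusted p = 0.0587) and *Atg2b* (0.14, adjusted p = 0.0765) were called with the replicate number as a block (adjusted p = 0.0302 and 0.0262).

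**Figure D2:**
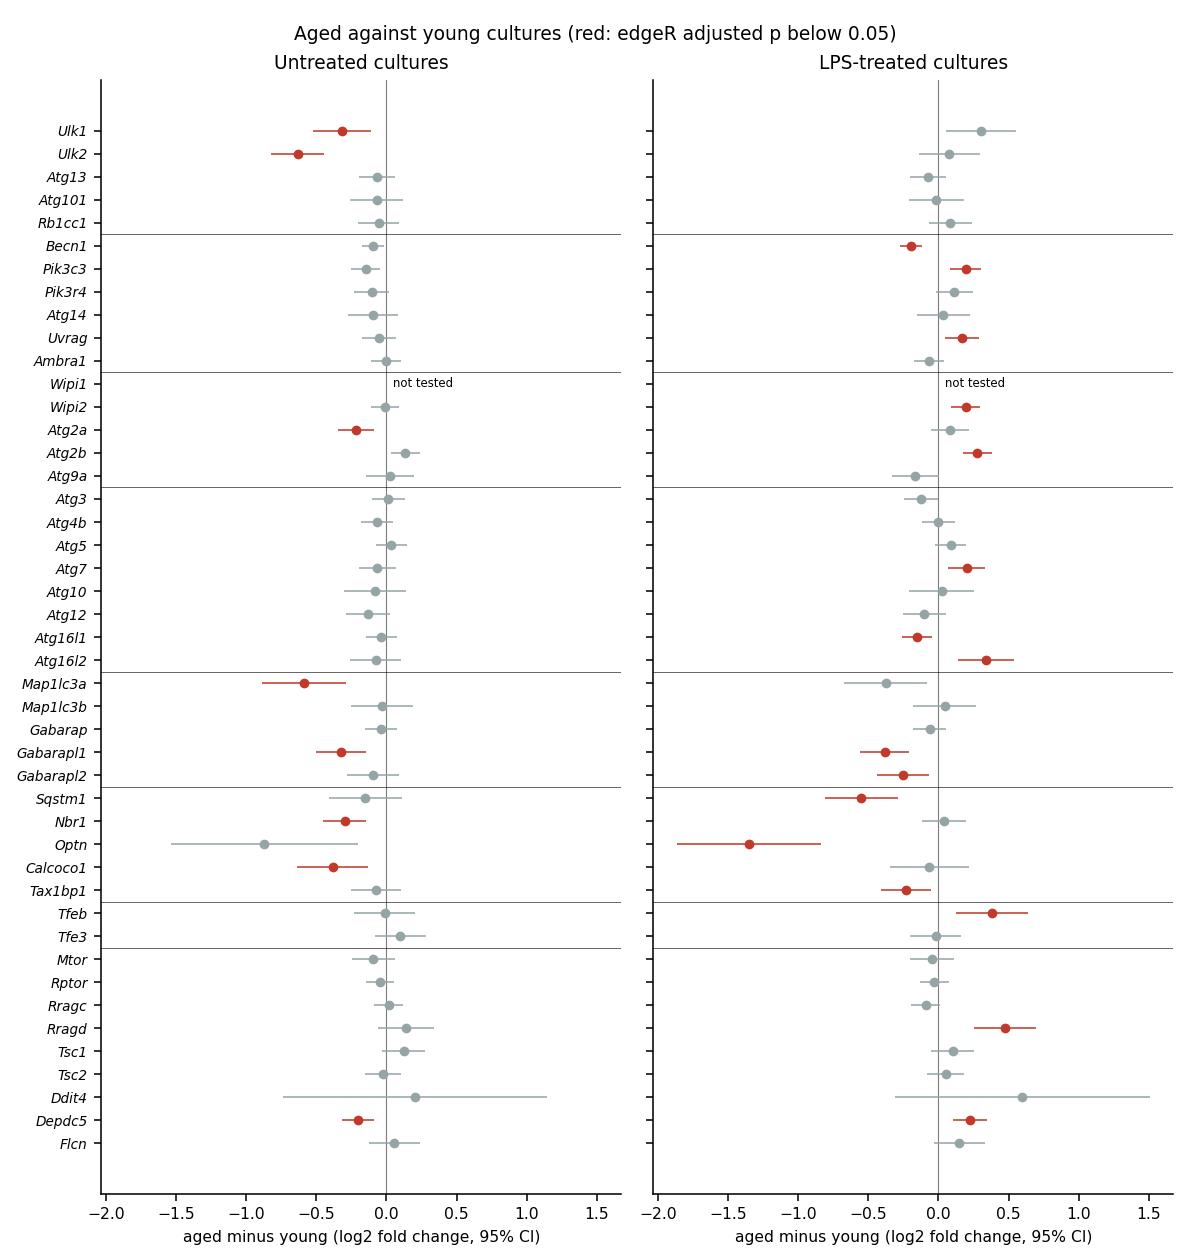
Aged minus young log2 fold changes (points) with 95% confidence intervals (lines) of each tested gene, in untreated cultures on the left and LPS-treated cultures on the right, with genes called by edgeR in red. All 8 red points on the left lie below 0, whereas the right panel has 9 red points above 0 and 7 below, with *Optn* (-1.35) farthest from 0.

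LPS changed most of the set at both ages. In young cultures 32 of 44 genes (72.7%) were called, 13 higher and 19 lower, where 64.6% of all tested genes were called (31.2% higher and 33.5% lower). In aged cultures 28 of 44 (63.6%) were called, 14 higher and 14 lower, where 54.4% of all tested genes were called (27.5% higher and 26.9% lower). The set had a median response of -0.12 (log2) in young and -0.033 in aged cultures, and all tested genes had -0.011 and 5.1e-04. The ranges of LPS-treated and untreated cultures did not overlap in 27 genes of the set in young and 20 in aged cultures, as compared to 49.1% and 40.1% of all tested genes. At both ages 12 genes were called as higher (*Atg13*, *Becn1*, *Ambra1*, *Atg9a*, *Atg12*, *Atg16l1*, *Gabarap*, *Sqstm1*, *Optn*, *Tax1bp1*, *Tfe3* and *Rragc*) and 14 as lower (*Ulk1*, *Ulk2*, *Atg101*, *Rb1cc1*, *Pik3c3*, *Pik3r4*, *Atg14*, *Atg2a*, *Atg2b*, *Atg16l2*, *Calcoco1*, *Tfeb*, *Rragd* and *Depdc5*), and none was called in opposite directions. A call at 1 age alone was found for *Atg3* (higher) and *Atg4b*, *Atg7*, *Nbr1*, *Tsc2* and *Uvrag* (lower) in young and for *Map1lc3a* and *Wipi2* (higher) in aged cultures, and for none of these 8 did the LPS responses differ between the ages in the test of that difference. In 10 genes neither response was called. The direction held in 5 of 5 batches for 30 of the 32 genes called in young and 27 of the 28 called in aged cultures, and in 4 of 5 for *Atg101* and *Atg14* in young and *Optn* in aged cultures. The split into higher and lower depends on the scaling. With library sizes alone in place of TMM it was 6 higher and 27 lower in young and 6 higher and 23 lower in aged cultures, and the median over all tested genes moved to -0.23 and -0.16. Relative to those medians the smaller increases remained positive, but *Becn1*, *Ambra1*, *Atg9a*, *Atg16l1*, *Gabarap* and *Tfe3* were then called at neither age. The genes called as lower in young cultures alone (*Atg4b*, *Atg7*, *Nbr1*, *Tsc2* and *Uvrag*) were with library sizes alone called as lower at both ages.

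The difference of the LPS responses of aged and young cultures was tested directly as an interaction. It was called for 4 of 44 genes (9.09%), as compared to 6.39% of all tested genes (4.12% with a positive and 2.27% with a negative difference). All 4, *Ulk2*, *Ulk1*, *Depdc5* and *Pik3c3*, fell under LPS at both ages, and their fall was smaller in aged cultures. Of the 26 genes of the set that were called in the same direction at both ages, 25 (96.2%) had the smaller response in aged cultures, the exception being *Atg12*, as compared to 5313 of 6442 (82.5%) of all tested genes called in that way. The number of called differences was 4, 1, 4, 5 and 2 without replicates 1 to 5 in turn, and only *Depdc5* was called in each. Without replicate 1 the negative difference of *Sqstm1* (-0.58) was called and that of *Ulk1* was not. With the replicate number as a block it was 7, adding *Atg2a* (adjusted p = 0.0232), *Atg16l2* (adjusted p = 0.0245) and *Nbr1* (adjusted p = 0.0274), and with library sizes alone it was 10, all positive.

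**Figure D3:**
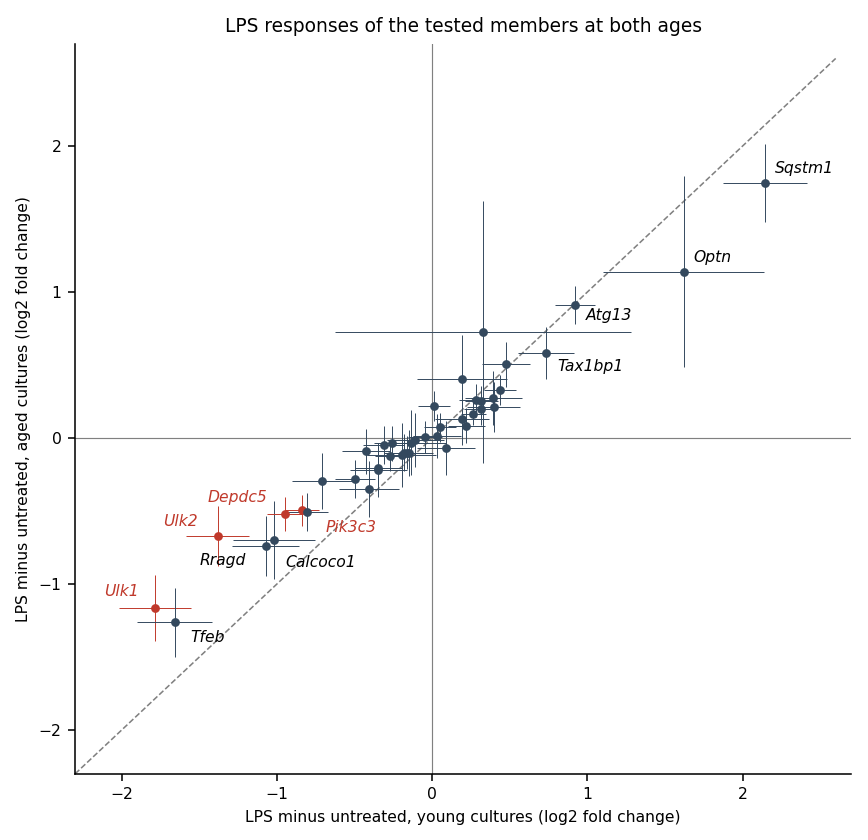
LPS response (LPS-treated minus untreated, log2 fold change) of each tested gene in young cultures (x axis) against that in aged cultures (y axis), with 95% confidence intervals. The dashed line marks equal responses, and the 4 genes whose responses differed in the test of that difference are red. These 4 lie above the line at the lower left, where *Ulk1* has -1.78 in young and -1.16 in aged cultures.

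Between aged and young LPS-treated cultures 16 of 44 genes (36.4%) were called, 9 higher and 7 lower in aged cultures, where 29% of all tested genes were called (14% higher and 15% lower). *Rragd*, *Tfeb*, *Atg16l2*, *Atg2b*, *Depdc5*, *Atg7*, *Pik3c3*, *Wipi2* and *Uvrag* were higher, and *Optn*, *Sqstm1*, *Gabarapl1*, *Gabarapl2*, *Tax1bp1*, *Becn1* and *Atg16l1* were lower. The cargo receptor genes were lower in 3 of 5 cases and higher in none, and no gene of the ULK complex was called (0 of 5). Groups of 5 genes are small beside a share of 29% of all tested genes, and these counts were not compared by a test. *Ulk1* was close to a call (0.30, edgeR adjusted p = 0.0641) and was higher in aged cultures in 5 of 5 batches. It was called without replicate 3 and with library sizes alone (edgeR adjusted p = 0.0204), but had up to 0.366 with a replicate left out. Ranges did not overlap in 7 genes of the set and in 14.8% of all tested genes. Within batches the direction held in 5 of 5 for 11 genes and in 4 of 5 for *Sqstm1*, *Tfeb*, *Tax1bp1*, *Atg7* and *Atg16l1*. With library sizes alone the split was 12 higher and 4 lower. The count was 11, 9, 17, 14 and 11 without replicates 1 to 5 in turn. *Atg16l1*, *Tax1bp1*, *Tfeb*, *Atg7*, *Uvrag*, *Gabarapl2* and *Atg16l2* lost their call in at least 1 of these fits, each without replicate 2, where the highest adjusted p values over the 5 fits ran from 0.0637 for *Atg16l2* to 0.265 for *Tax1bp1*. With the replicate number as a block *Map1lc3a* (-0.37, adjusted p = 0.0531) and *Atg9a* (-0.16, adjusted p = 0.146) were called as lower too (adjusted p = 0.0062 and 0.0357). These cultures also differed in the summed LPS-inducible genes given above, and the part of that difference in these results was not tested.

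**Figure D4:**
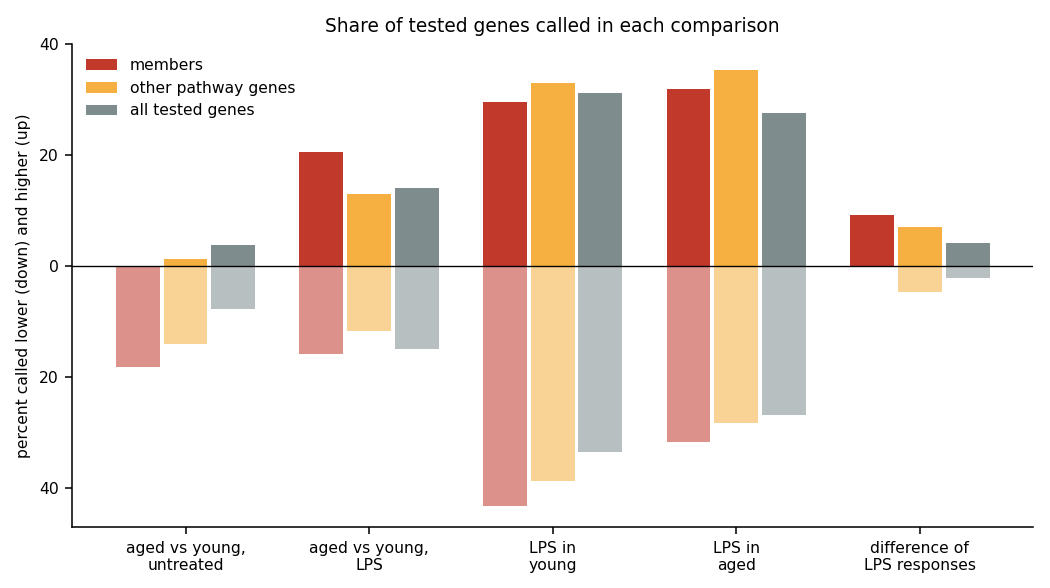
Share of tested genes called as higher (upward bars) and lower (downward bars, pale) in each comparison, for the 44 genes of the set (red), the 85 other pathway genes (orange) and all 12799 genes (grey). In untreated cultures the red bars reach 0% higher and 18.2% lower, and the grey bars 3.71% and 7.81%.

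In the ULK complex, which receives the signal from mTORC1, all 5 genes were called under LPS at both ages, *Atg13* as higher and the other 4 as lower. *Ulk1* (ENSMUSG00000029512, chr5:110784488-110810097), the kinase that phosphorylates the downstream autophagy proteins, had 24.8, 21.3, 26, 24.4 and 23.9 CPM in the young and 20.4, 18.6, 18.2, 20.1 and 19.3 CPM in the aged untreated cultures. With LPS it had 4.74, 6.05, 8.13, 7.97 and 7.66 CPM in the young and 10.0, 6.92, 8.27, 8.66 and 9.10 CPM in aged cultures. All aged untreated values lay below all young untreated values, all LPS-treated values below all untreated ones, and the LPS-treated groups overlapped. *Ulk1* fell under LPS to 0.290 of its untreated level in young (log2 fold change -1.78 ± 0.11, adjusted p = 2.82e-12) and to 0.446 in aged cultures (-1.16 ± 0.11, adjusted p = 5.05e-09), and the responses differed (0.62 ± 0.16, adjusted p = 0.0179). The decrease of *Ulk1* with age in untreated cultures (adjusted p = 0.0394) was not called without replicate 2, 3, 4 or 5 (highest adjusted p = 0.142) nor with library sizes alone, and the difference of the responses was not called without replicate 1, 2 or 5 (highest adjusted p = 0.0797).

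*Ulk2* (ENSMUSG00000004798, chr11:61775649-61855073), the paralogue of *Ulk1*, had 18.1, 22, 18.8, 16.1 and 20.7 CPM in the young and 12.3, 11.1, 13.5, 12.9 and 11.7 CPM in the aged untreated cultures. LPS-treated cultures had 6.41, 6.21, 7.99, 7.08 and 8.76 CPM in the young and 7.65, 7.74, 7.51, 7.66 and 8.16 CPM in the aged group. The untreated groups were thus separated by age, whereas aged LPS-treated values fell within the range of the young ones. *Ulk2* had the strongest decrease with age among the called genes of the set (-0.63 ± 0.092, adjusted p = 0.000101, highest adjusted p = 0.00403 with any replicate left out), fell under LPS (log2 fold change -1.38 ± 0.10 in young and -0.67 ± 0.10 in aged cultures), and showed the largest difference of the LPS responses (0.71 ± 0.14, adjusted p = 0.00334). That difference was not called without replicate 2 (adjusted p = 0.0634). Under LPS the aged minus young difference was 0.079 ± 0.11 and was not called (95% confidence interval -0.14 to 0.30).

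*Atg13*, the regulatory subunit that links ULK1 to the scaffold protein encoded by *Rb1cc1*, went the other way. It had 166, 145, 149, 139 and 134 CPM in the young and 139, 139.7, 150.0, 139 and 131 CPM in the aged untreated cultures, and 293, 282, 266, 272 and 272 CPM in the young and 272, 237, 302, 249 and 256 CPM in the aged LPS-treated cultures. Untreated and LPS-treated values were far apart at both ages, while the ages overlapped. The increases of *Atg13* were nearly equal (0.92 ± 0.062 in young and 0.91 ± 0.062 in aged cultures), and the 95% confidence interval of their difference was -0.19 to 0.18. *Atg101*, which stabilizes ATG13, and *Rb1cc1* fell by less than the ULK kinases (-0.40 ± 0.093 and -0.35 ± 0.072 in young, -0.35 ± 0.093 and -0.21 ± 0.072 in aged cultures). The fall of *Rb1cc1* in aged cultures was not called without replicate 2 or 5 (highest adjusted p = 0.121).

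**Figure D5:**
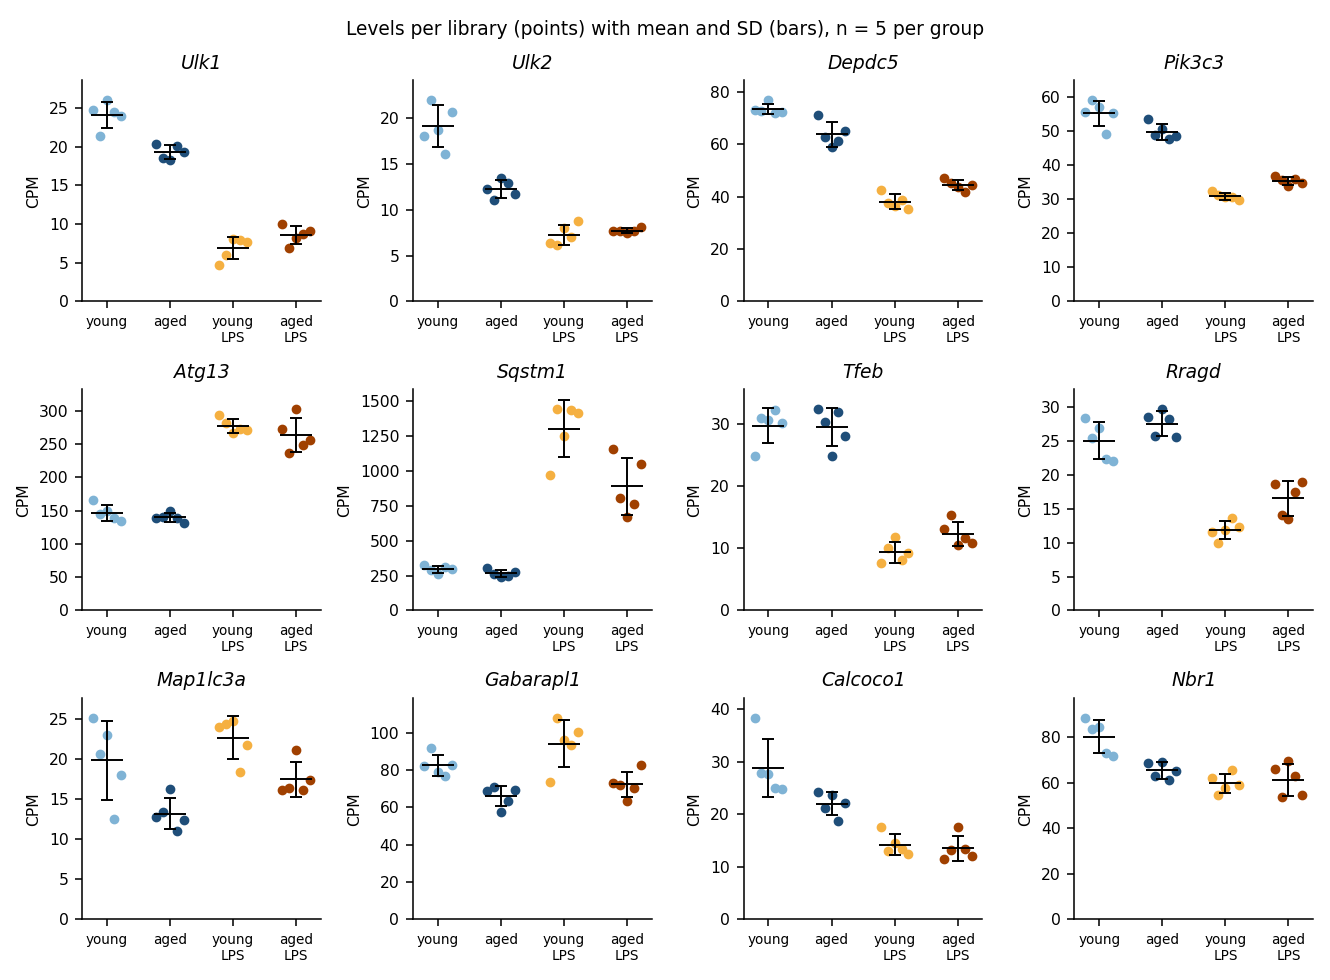
Level (CPM, y axes starting at 0) of 12 genes in each library (points) with the mean and SD of each group (bars, n = 5), for young and aged cultures without and with LPS. *Ulk1*, *Ulk2*, *Depdc5* and *Pik3c3* in the top row fall from the untreated to the LPS-treated groups, while *Atg13* and *Sqstm1* rise, *Sqstm1* from 295 ± 24.5 to 1303 ± 203 CPM in young cultures.

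In the class III PI3-kinase complex no gene was called between the ages in untreated cultures, and all 6 in young and 5 of 6 in aged cultures were called under LPS. *Pik3c3*, the catalytic subunit, had 55.5, 58.9, 56.9, 49 and 55.1 CPM in the young and 53.4, 48.8, 50.4, 47.5 and 48.5 CPM in the aged untreated cultures. With LPS the values were 32.5, 31.1, 30.7, 30.5 and 29.7 CPM in the young and 36.6, 35.6, 33.9, 35.7 and 34.5 CPM in aged cultures. LPS separated the groups at both ages, and all aged LPS-treated values exceeded all young ones. *Pik3c3* fell under LPS (log2 fold change -0.84 ± 0.052 in young and -0.49 ± 0.052 in aged cultures), with a difference (0.34 ± 0.073, adjusted p = 0.00628) that was not called without replicate 2 or 5 (highest adjusted p = 0.0936), and it was higher in aged than in young LPS-treated cultures (0.19 ± 0.053, adjusted p = 0.00856).

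The other members of that complex split by direction under LPS. *Pik3r4*, the regulatory subunit, and *Atg14*, which directs the complex to autophagy, fell (-0.50 ± 0.062 and -0.35 ± 0.088 in young, -0.28 ± 0.062 and -0.22 ± 0.088 in aged cultures), as did *Uvrag*, which takes the place of ATG14 in an endosomal complex, in young cultures (-0.26 ± 0.058). *Becn1*, the scaffold subunit beclin 1, and its partner *Ambra1* rose slightly (0.27 ± 0.039 and 0.32 ± 0.05 in young, 0.17 ± 0.039 and 0.25 ± 0.05 in aged cultures). With library sizes alone the values of *Becn1* and *Ambra1* were 0.046 and 0.10 in young and 0.0077 and 0.092 in aged cultures, and neither was called. *Becn1* was lower in aged than in young LPS-treated cultures (-0.20 ± 0.039, adjusted p = 0.000557), and *Uvrag* was higher (0.17 ± 0.058, adjusted p = 0.0329, up to 0.155 with a replicate left out, and not called without 1, 2 or 5). The fall of *Atg14* in aged cultures was not called without replicate 2, 3 or 5 (highest adjusted p = 0.179). Exons of *Cntd1* on the opposite strand cover 43.9% of the exon length of *Becn1*, but *Cntd1* had at most 4.22% of the counts of *Becn1* in any library.

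Among the genes that act downstream of the marked membrane, both lipid transfer genes fell under LPS. *Atg2a* had 73.7, 68.9, 70.0, 69.7 and 66.9 CPM in the young and 61, 61.2, 54.8, 64 and 59.4 CPM in the aged untreated cultures. LPS-treated cultures had 36.5, 37.3, 39.4, 47.5 and 38.9 CPM in the young and 45.8, 40.2, 39.3, 43.8 and 42.3 CPM in the aged group. The untreated groups did not overlap, and both lay above every LPS-treated value. *Atg2a* fell under LPS (log2 fold change -0.80 ± 0.064 in young and -0.51 ± 0.064 in aged cultures) and was lower in aged untreated cultures (-0.22 ± 0.062, adjusted p = 0.0265), a call lost without replicate 1, 2, 3 or 5 (highest adjusted p = 0.109) and with library sizes alone.

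*Atg2b*, its paralogue, had 159, 149.8, 158, 159.9 and 148 CPM in the young and 162, 178, 169, 178 and 162 CPM in the aged untreated cultures, and 128, 119, 133, 141 and 122 CPM in the young and 156, 151, 148, 167 and 156 CPM in the aged LPS-treated cultures. Young and aged LPS-treated values did not overlap, the aged being higher (0.28 ± 0.05, adjusted p = 0.000193). *Atg2b* fell under LPS (log2 fold change -0.27 ± 0.05 in young and -0.13 ± 0.049 in aged cultures), the latter call being lost without replicate 2 or 3 (highest adjusted p = 0.157). *Wipi2*, which recruits the conjugation machinery to the membrane, rose in aged (0.22 ± 0.049, adjusted p = 0.000593) and was 0.013 ± 0.049 in young cultures under LPS (not called), and was higher in aged than in young LPS-treated cultures (0.19 ± 0.049, adjusted p = 0.00454). With library sizes alone the response of *Wipi2* was -0.21 in young and 0.059 in aged cultures. *Atg9a* rose by 0.40 ± 0.082 in young and 0.21 ± 0.082 in aged cultures, the latter not called without replicate 1, 2 or 3 (highest adjusted p = 0.126). The annotated gene *Gm29253* on the same strand covers 31.8% of the exon length of *Atg9a* and had 106% to 179% of its counts, so the counts of *Atg9a* are uncertain.

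The conjugation machinery contributed 6 of 8 called genes in young and 3 of 8 in aged cultures under LPS. *Atg16l2*, a paralogue of the scaffold ATG16L1, changed most in young and *Atg12* in aged cultures. *Atg16l2* had 15.7, 17.6, 17, 20.7 and 19.4 CPM in the young and 18.8, 15.4, 16.2, 19.6 and 15.6 CPM in the aged untreated cultures, and 10.3, 9.94, 11.4, 12.6 and 11 CPM in the young and 15.5, 13.6, 13.4, 14.6 and 12.9 CPM in the aged LPS-treated cultures. The young LPS-treated values were the lowest of the 4 groups and did not overlap with any other. *Atg16l2* fell under LPS (log2 fold change -0.71 ± 0.094 in young and -0.29 ± 0.091 in aged cultures) and was higher in aged than in young LPS-treated cultures (0.34 ± 0.10, adjusted p = 0.0108, not called without replicate 2, adjusted p = 0.0637).

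*Atg16l1* itself rose (0.31 ± 0.052 in young and 0.20 ± 0.052 in aged cultures), as did *Atg12*, the ubiquitin-like protein joined to ATG5 (0.48 ± 0.075 and 0.51 ± 0.075). *Atg5* was not called at either age (-0.045 ± 0.053 and 0.0069 ± 0.053), nor was *Atg10*, the enzyme that joins ATG12 to it (-0.14 ± 0.11 and -0.031 ± 0.11). With library sizes alone *Atg5* had -0.27 in young and -0.15 in aged cultures and was called at both ages. *Atg10* then had -0.36 in young cultures, which was called, and -0.19 in aged cultures, which was not. *Atg3*, the enzyme that transfers ATG8 proteins to the lipid, rose in young cultures (0.22 ± 0.058), but had -0.00028 with library sizes alone. *Atg7*, which activates ATG8 and ATG12, and *Atg4b*, the protease that prepares and releases ATG8, fell in young cultures (-0.31 ± 0.063 and -0.16 ± 0.055), *Atg4b* not being called without replicate 1 (adjusted p = 0.0796). In aged as compared to young LPS-treated cultures *Atg7* was higher (0.20 ± 0.064, adjusted p = 0.0204) and *Atg16l1* lower (-0.15 ± 0.052, adjusted p = 0.0331). Both calls depended on replicates: *Atg7* was not called without 1, 2 or 5 (highest adjusted p = 0.12) and *Atg16l1* not without 1, 2, 3 or 4 (highest adjusted p = 0.172).

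Of the 5 ATG8 genes, which encode the proteins that coat the autophagosome, 2 were lower in aged untreated cultures and 1 in young and 2 in aged cultures rose under LPS. *Map1lc3a*, which encodes LC3A, had 25.2, 20.6, 23, 12.5 and 18 CPM in the young and 12.9, 13.4, 16.2, 11.1 and 12.4 CPM in the aged untreated cultures. LPS-treated cultures had 24.1, 24.4, 24.9, 18.4 and 21.9 CPM in the young and 16.2, 16.4, 21.2, 16.2 and 17.5 CPM in the aged group. Young cultures varied widely, with replicate 4 the lowest of its group both without and with LPS, and the ranges of the ages overlapped in both treatments. *Map1lc3a* was lower in aged untreated cultures (-0.59 ± 0.14, adjusted p = 0.00996, not called without replicate 1 or 2, highest adjusted p = 0.0757) and rose under LPS in aged cultures (0.41 ± 0.15, adjusted p = 0.0223, not called without replicate 2 or 5, highest adjusted p = 0.0829, nor with library sizes alone). In young cultures its LPS response was 0.19 ± 0.14 and was not called.

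*Gabarapl1* had 82.4, 91.9, 79.3, 76.9 and 82.9 CPM in the young and 69.1, 71, 57.7, 63.4 and 69.2 CPM in the aged untreated cultures, and 73.6, 108, 96.1, 93.4 and 100.4 CPM in the young and 73.2, 71.8, 63.6, 70.5 and 82.7 CPM in the aged LPS-treated cultures. Aged untreated values lay below all young untreated ones, and under LPS 4 of 5 young values exceeded all aged ones, replicate 1 being the exception. *Gabarapl1* was thus lower in aged cultures without (-0.32 ± 0.085, adjusted p = 0.015) and with LPS (-0.38 ± 0.085, adjusted p = 0.00155). In untreated cultures the call was lost without replicate 2 or 4 (highest adjusted p = 0.0695). Its increase under LPS in young cultures (0.19 ± 0.084, adjusted p = 0.0524) was called only with the replicate number as a block (adjusted p = 0.0248) or in 3 other fits (DESeq2 size factors, at least 10 counts in every library, and without replicate 1).

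*Gabarapl2* had 30.3, 25.7, 26.6, 22.1 and 23.8 CPM in the young and 24.7, 22.6, 26.4, 20.4 and 26.1 CPM in the aged untreated cultures, and 30.7, 29.5, 24.2, 24.7 and 27.8 CPM in the young and 21, 23.2, 22.4, 24.1 and 24.1 CPM in the aged LPS-treated cultures. Young and aged values were separated only with LPS, by a narrow margin, the aged being lower (-0.25 ± 0.09, adjusted p = 0.0397). That call was lost without replicate 1, 2 or 5 (highest adjusted p = 0.179) and with library sizes alone. *Gabarap* rose under LPS at both ages (0.29 ± 0.055 and 0.26 ± 0.055), though with library sizes alone its values were 0.065 and 0.10 and not called. *Map1lc3b*, which encodes the LC3B protein commonly used to follow autophagy, was not called in any comparison and had 118 ± 5.67 CPM in the young and 115 ± 12.3 CPM in the aged untreated cultures. With library sizes alone its LPS responses were -0.41 in young and -0.28 in aged cultures, and both were called.

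The cargo receptors held the largest increases of the set. *Sqstm1* (chr11:50199366-50210827), which encodes p62, a receptor for ubiquitylated cargo, had 323, 290.0, 258, 309 and 293 CPM in the young and 305, 262, 243, 245 and 273 CPM in the aged untreated cultures. With LPS it reached 969, 1442, 1250.1, 1439.7 and 1415 CPM in the young and 1160.1, 805, 672, 763 and 1050.4 CPM in aged cultures. Every LPS-treated value exceeded every untreated one, and the LPS-treated ages overlapped because replicate 1 was the lowest of the young and the highest of the aged group. *Sqstm1* rose 4.42-fold in young (2.15 ± 0.13, adjusted p = 1.70e-12) and 3.35-fold in aged cultures (1.75 ± 0.13, adjusted p = 9.42e-11), and was lower in aged than in young LPS-treated cultures (-0.55 ± 0.12, adjusted p = 0.00185). The difference of its LPS responses was -0.40 ± 0.18 and was not called (adjusted p = 0.21), except without replicate 1 (-0.58). *Mrnip* on the opposite strand covers 17.3% of its exon length and had at most 2.72% of its counts.

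*Optn*, the gene of the receptor optineurin, was expressed near the floor. It had 0.689, 0.830, 0.965, 1.12 and 0.465 CPM in the young and 0.258, 0.336, 0.513, 0.439 and 0.665 CPM in the aged untreated cultures, and 1.97, 2.65, 2.62, 2.83 and 2.50 CPM in the young and 0.842, 0.989, 1.17, 0.387 and 1.52 CPM in the aged LPS-treated cultures. The young LPS-treated values were above all others. *Optn* rose under LPS (1.62 ± 0.25, adjusted p = 5.74e-06 in young and 1.14 ± 0.32, adjusted p = 0.00411 in aged cultures) and was lower in aged than in young LPS-treated cultures (-1.35 ± 0.25, adjusted p = 0.00026). In untreated cultures the aged minus young value was -0.87 ± 0.32 and was not called (adjusted p = 0.0821), except without replicate 5.

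*Calcoco1*, which encodes a receptor for the endoplasmic reticulum, had 38.3, 27.8, 27.7, 25 and 24.9 CPM in the young and 24.4, 21.3, 23.7, 18.7 and 22.1 CPM in the aged untreated cultures, and 17.7, 13.1, 14.5, 13.5 and 12.5 CPM in the young and 11.6, 13.2, 17.6, 13.4 and 12 CPM in the aged LPS-treated cultures. Replicate 1 of the young untreated group stood above the rest. *Calcoco1* fell under LPS (log2 fold change -1.02 ± 0.13 in young and -0.70 ± 0.13 in aged cultures). Its decrease with age in untreated cultures (-0.38 ± 0.12, adjusted p = 0.0421) was lost without replicate 1, 2, 4 or 5 (highest adjusted p = 0.174).

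*Nbr1*, a receptor related in structure to p62, had 88.4, 83.6, 84.5, 73.2 and 71.9 CPM in the young and 68.9, 62.8, 69.3, 61.1 and 65.1 CPM in the aged untreated cultures, and 62.2, 54.8, 57.8, 65.7 and 59 CPM in the young and 66.1, 53.8, 69.7, 63 and 54.6 CPM in the aged LPS-treated cultures. The aged untreated cultures lay below the young ones and among the LPS-treated ones. *Nbr1* was lower in aged untreated cultures (-0.30 ± 0.074, adjusted p = 0.0114, not called without replicate 2, adjusted p = 0.0751), fell under LPS in young cultures (-0.42 ± 0.075, adjusted p = 3.18e-05) and was -0.09 ± 0.075 in aged cultures, which was not called (adjusted p = 0.324). With library sizes alone the LPS response of *Nbr1* in aged cultures was -0.25 and was called. *Tax1bp1*, which carries cargo and also restrains NF-kappaB signalling, rose at both ages (0.73 ± 0.086 and 0.58 ± 0.086). It was lower in aged than in young LPS-treated cultures (-0.23 ± 0.086, adjusted p = 0.0477), a call lost without replicate 1, 2, 4 or 5 (highest adjusted p = 0.265) and with library sizes alone.

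The TFEB family, transcription factors that drive lysosomal and autophagy genes, split under LPS. *Tfeb* had 24.9, 31, 30.6, 32.3 and 30.2 CPM in the young and 32.4, 30.4, 24.9, 31.9 and 28.2 CPM in the aged untreated cultures, and 7.60, 10.1, 11.8, 8.20 and 9.20 CPM in the young and 13.1, 15.4, 10.6, 11.7 and 10.9 CPM in the aged LPS-treated cultures. Untreated and LPS-treated values were separated by a wide gap at both ages, and the ages overlapped in both treatments. *Tfeb* fell under LPS (log2 fold change -1.66 ± 0.12, adjusted p = 2.42e-11 in young and -1.26 ± 0.11, adjusted p = 2.45e-09 in aged cultures), while *Tfe3* rose (0.39 ± 0.089 and 0.27 ± 0.088, the latter not called without replicate 5, adjusted p = 0.0503). With library sizes alone *Tfe3* had 0.17 and 0.11 and was not called. *Tfeb* was higher in aged than in young LPS-treated cultures (0.38 ± 0.12, adjusted p = 0.0237), which was lost without replicate 1, 2, 4 or 5 (highest adjusted p = 0.129).

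Of the 9 genes of mTORC1 and its regulators, 4 in young and 3 in aged cultures were called under LPS. *Depdc5* (chr5:32863701-32994236), the GATOR1 subunit, had 73.2, 72.5, 76.7, 71.9 and 72.2 CPM in the young and 71.3, 62.6, 58.8, 61.1 and 65 CPM in the aged untreated cultures. LPS-treated cultures had 42.6, 37.6, 36.4, 38.5 and 35.3 CPM in the young and 47.1, 45.2, 43.8, 41.6 and 44.4 CPM in the aged group. Aged values were below young ones without LPS, where the groups did not overlap, and mostly above them with LPS. *Depdc5* fell under LPS (log2 fold change -0.95 ± 0.057 in young and -0.52 ± 0.056 in aged cultures), with a difference (0.43 ± 0.08, adjusted p = 0.00221) that was called with any replicate left out (highest adjusted p = 0.0465). It was lower in aged untreated (-0.20 ± 0.055, adjusted p = 0.019, lost without replicate 2, 3, 4 or 5, highest adjusted p = 0.135) and higher in aged LPS-treated cultures (0.22 ± 0.058, adjusted p = 0.00534).

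*Rragd*, which encodes a Rag GTPase that recruits mTORC1 to the lysosome, had 28.4, 25.4, 27, 22.4 and 22.1 CPM in the young and 28.6, 25.8, 29.7, 28.3 and 25.6 CPM in the aged untreated cultures, and 11.5, 9.94, 11.8, 13.7 and 12.4 CPM in the young and 18.7, 14.1, 13.4, 17.5 and 18.9 CPM in the aged LPS-treated cultures. All LPS-treated values lay below the untreated ones, and the young LPS-treated ones were the lowest apart from a small overlap. *Rragd* fell under LPS (log2 fold change -1.07 ± 0.10 in young and -0.74 ± 0.10 in aged cultures) and was higher in aged than in young LPS-treated cultures (0.47 ± 0.11, adjusted p = 0.00184). Its paralogue *Rragc* rose instead (0.44 ± 0.05, adjusted p = 7.11e-08 in young and 0.33 ± 0.05, adjusted p = 6.83e-06 in aged cultures).

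The kinase gene *Mtor* and *Rptor*, which encodes the scaffold raptor, were not called in any comparison, with LPS responses of -0.15 ± 0.075 and 0.051 ± 0.048 in young and -0.10 ± 0.075 and 0.072 ± 0.048 in aged cultures. *Tsc2*, the catalytic subunit of the TSC complex, fell in young cultures (-0.18 ± 0.063, adjusted p = 0.0158, not called without replicate 2, adjusted p = 0.0661), whereas *Tsc1* was not called (0.032 ± 0.074 in young and 0.014 ± 0.073 in aged cultures), nor was *Flcn*, which acts on the Rag GTPases (-0.11 ± 0.088 and -0.014 ± 0.088). With library sizes alone *Mtor*, *Rptor*, *Tsc1* and *Flcn* had -0.37, -0.17, -0.19 and -0.33 in young cultures and were called. In aged cultures *Mtor* (-0.26) and *Tsc2* (-0.26) were then called, and *Rptor*, *Tsc1* and *Flcn* were not. *Ddit4*, a stress-induced inhibitor of mTORC1, spread from 2.27 to 20.0 CPM in the aged LPS-treated cultures, and its intervals were accordingly wide (-0.62 to 1.28 for the log2 LPS response in young and -0.17 to 1.62 in aged cultures).

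Of 92 other genes of the same pathways, chosen by role, 85 were tested. In untreated cultures 1 was higher and 12 were lower in aged cells (15.3% called, as compared to 11.5% of all tested genes). Under LPS 28 were higher and 33 lower in young cultures (71.8%, 64.6% of all). In aged cultures 30 were higher and 24 lower under LPS (63.5%, 54.4% of all). Between aged and young LPS-treated cultures 11 were higher and 10 lower (24.7%, 29% of all). The LPS responses differed in 10 (11.8%, 6.39% of all). The mTOR inhibitor gene *Deptor* (log2 fold change -2.50 ± 0.11 in young and -1.98 ± 0.11 in aged cultures) and *Sesn1*, whose product restrains mTORC1 when leucine is low (-2.81 ± 0.10 and -2.37 ± 0.10), fell under LPS at both ages. *Prr5l*, an interactor of mTORC2, rose (2.02 ± 0.41 and 2.23 ± 0.47), but its mean level over all libraries was low (1.05 CPM). *Sesn2*, the paralogue of *Sesn1*, went the other way and rose at both ages (1.28 ± 0.27, edgeR adjusted p = 0.000226, in young and 1.48 ± 0.26, edgeR adjusted p = 5.71e-05, in aged cultures). *Sesn1* (-0.39 ± 0.089, edgeR adjusted p = 0.00625) and *Pink1*, a kinase of mitochondrial autophagy (-0.56 ± 0.12, edgeR adjusted p = 0.00465), were lower in aged untreated cultures, and *Castor1*, an arginine sensor, was higher (0.56 ± 0.18, edgeR adjusted p = 0.0421). The LPS response of *Foxo1*, a transcription factor of autophagy genes, was less negative in aged cultures (difference 0.71 ± 0.13, edgeR adjusted p = 0.00141), and that of *Rubcnl*, which promotes autophagosome maturation, more negative (-0.86 ± 0.19, edgeR adjusted p = 0.00792).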

How the data were processed

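Poly(A) RNA was made into stranded libraries by the authors, who aligned the reads to GRCm38 with STAR 2.6.1d and counted them per gene with featureCounts 1.5.1. They deposited whole-number counts per Ensembl gene without normalization. The settings of featureCounts for strand, multiple alignments and overlapping genes are not given in the sources used here, so genes with overlapping exons or near-identical copies are uncertain. Gene positions, exon lengths and symbols came from GENCODE on GRCm38 (55227 of 55487 identifiers matched), promoters from RefSeq.

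All 20 libraries entered a fit of the 4 group means with edgeR 4.0.16 (limma 3.58.1, R 4.3.3) after filterByExpr and TMM. The quasi-likelihood F-test and Benjamini-Hochberg adjustment covered 12799 genes. Fold changes are log2 values with SE. Alternatives, including DESeq2 1.42.0 with its Wald test, are given in the closing section.

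The labels give the replicate number as a batch, which pairs the cultures of the 4 groups. After removal of the group means, libraries with the same number had a mean correlation across genes of 0.146 (-0.21 to 0.39, 30 pairs). Untreated and LPS-treated libraries of the same age had higher means, 0.276 in young and 0.260 in aged cultures. Pairs of groups of different age had means of 0.042 to 0.111. Libraries with different numbers had means of -0.068 to -0.0099. The main fit did not include the replicate number. The 40 pairs of libraries of the same group had a chi-square per degree of freedom of 2.42 to 26.8, so none was a copy of another.

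The genes and lists were chosen with earlier results of these data known. Values per library are given for the 8 largest called changes of each comparison and for every gene called in the difference of the LPS responses. Of the other pathway genes, those named are among the 6 largest called changes of a comparison with at least 1 CPM. Figures were drawn with matplotlib 3.10.9.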

Additional observations from a re-analysis of the deposited data

Results flagged for a closer look

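In 8 of 180 sets of 5 cultures (45 genes in 4 groups) the highest or lowest culture stood apart from the other 4 by Dixon's criterion, which chance meets in about 1 of 20 sets. Of the aged LPS-treated cultures, replicate 3 had 16.6 CPM of *Atg101* (20.4 to 21.8 CPM in the others), 48.2 CPM of *Atg7* (56.9 to 59.1 CPM) and 21.2 CPM of *Map1lc3a* (16.2 to 17.5 CPM). Of the young LPS-treated cultures, replicate 4 had 47.5 CPM of *Atg2a* (36.5 to 39.4 CPM) and 29.7 CPM of *Rb1cc1* (26.4 to 27.0 CPM). Young untreated replicate 1 had 38.3 CPM of *Calcoco1* (24.9 to 27.8 CPM) and 24.9 CPM of *Tfeb* (30.2 to 32.3 CPM), and young untreated replicate 3 had 76.7 CPM of *Depdc5* (71.9 to 73.2 CPM).

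The LPS response differed between aged and young cultures in 4 genes by edgeR's test of that difference. The aged minus young difference was 0.71 for *Ulk2*, 0.62 for *Ulk1*, 0.43 for *Depdc5* and 0.34 for *Pik3c3* on the log2 scale, and it was positive in 5 of 5 batches for each.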

How the results depend on the processing

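The number of called genes of the set stayed within 1.5 times in both LPS responses under every alternative. For aged against young untreated cultures the count of 8 became 5 without the filter on low counts, 2 at an adjusted p below 0.01, and 1 to 5 with a replicate left out. For aged against young LPS-treated cultures the count of 16 became 9 at that threshold and 9 to 17 with a replicate left out. For the difference of the LPS responses the count of 4 became 10 with library sizes alone, 7 with the replicate number as a block and 1 to 5 with a replicate left out. Among LPS responses called with either scaling, library sizes alone turned the sign of those of *Wipi2* (-0.21), *Atg3* (-0.00028), *Rptor* (-0.17) and *Tsc1* (-0.19) in young and of *Atg5* (-0.15) in aged cultures, where the median of all tested genes was -0.23 and -0.16. A further 7 responses that neither scaling called changed sign too (*Map1lc3a*, *Gabarapl1* and *Gabarapl2* in young, *Atg3*, *Gabarapl1*, *Rptor* and *Tsc1* in aged cultures). The replicate block ended no call, and beyond the 8 calls it added, given in the report, it changed no other. DESeq2's Wald test changed 3 of 219 calls. Counts near the floor limit *Optn* and *Wipi1*, and low counts limit *Prr5l* (mean 1.05 CPM).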
